A study of Danio rerio with 30 samples.

Results

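Tailbud progenitors of the zebrafish embryo at 12 hours post fertilization (hpf) were taken from single-cell profiles of whole embryos by a marker rule. A barcode was a member if it held at least 1000 unique molecular identifiers (UMIs, each a counted transcript molecule), at most 10% mitochondrial UMIs, and at least 1 UMI in 4 or more of the 7 genes eve1, hoxa13b, hoxd12a, bmp2a, wnt8a, foxd5 and tbxta. Barcodes with UMIs in 2 or more of the 3 notochord genes noto, twist2 and ntd5 were left out, which removed 321 barcodes that met the rest of the rule. Members were thus chosen by their measured counts of these 10 genes. This gave 3914 members among 64631 kept barcodes (6.06%), between 154 and 441 per library in 16 libraries.

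The tailbud is the growth zone at the posterior end of the embryo. Its progenitors can form spinal cord or paraxial mesoderm, the source of the somites, and they are held in an undifferentiated state by Wnt and FGF signals and by the transcription factor Brachyury, while retinoic acid from the forming somites promotes differentiation. Posterior Hox genes are switched on there in sequence, and a clock of oscillating Hairy/Enhancer-of-split genes, coupled between cells by Notch signalling, runs in these cells and in the presomitic mesoderm that they feed.

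All embryos were of the TL/AB strain and were lysed as pools of whole animals, so each library is 1 pool. The series asks how 4 transcription factors of the unfolded protein response, xbp1, atf6, creb3l1 and creb3l2, control genes of the secretory machinery. Crispants, embryos mutated by injection of Cas9 protein and guide RNAs at the 1-cell stage, are usually mosaic. The tyr crispants (a pigment gene, 2 libraries) were the stated injected control and the uninjected wild type had 2 libraries. The creb3l1 mutant, an uninjected homozygous stable line, and the quadruple embryos also had 2 libraries each, and the quadruple embryos were creb3l1 mutants injected with guides against xbp1, atf6 and creb3l2. The crispants of atf6, xbp1, creb3l1, creb3l2 and xbp1+atf6 had 1 library each. Embryos of 3 further groups, xbp1+creb3l2+creb3l1, creb3l2+creb3l1 and atf6+creb3l2+creb3l1, had 1 library each and were made by injecting creb3l1 mutants. Thus xbp1 was lost in 5 libraries, atf6 in 5, creb3l1 in 8 and creb3l2 in 6, and 12 of 16 libraries were injected. A group with 1 library has no replicate check of its own, and the p-values below measure the spread between libraries. In the fits of all 16 libraries, which add the effects of the losses, that spread is not one between replicates alone. It also holds any departure of a genotype from such addition.

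The libraries held 37677042 to 120722910 UMIs in all and 3058865 to 11165493 UMIs in members. They fall into sets A and B, 8 each, named by a letter in the deposited file names and processed with different Cell Ranger releases. The median member held 13765 to 16171 UMIs in set A and 22150 to 28242 in set B. No pair of libraries shared more than 13 barcodes, and none shared more than 0.289% of the barcodes of its smaller library. Doublets were not removed from the main counts. Marker lists of other cell types were summed in members, in CPM (UMIs scaled to the same total in each library). The hatching gland list, which holds xbp1 itself, was at 459 to 1433 CPM. Of its genes the cathepsin gene ctsla was at 290 to 504 CPM, while the hatching enzyme gene he1.1 ran from 0.824 CPM to 415 CPM in the first creb3l1 mutant library. The germ cell list reached 412 CPM in the first creb3l1 mutant library and at most 51.7 in any other, and the periderm list ranged from 60.6 to 762.

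Among the 7 rule genes, tbxta (Brachyury), wnt8a (a Wnt ligand of the posterior margin) and eve1 (a posterior homeobox gene) were detected in most members. The share of members with a tbxta UMI had its lowest, median and highest library at 92.8%, 96.3% and 99.0%, and the same values were 89.1%, 94.2% and 99.0% for wnt8a and 79.8%, 87.6% and 92.7% for eve1. The BMP ligand bmp2a had a median share of 74.0% and the forkhead factor foxd5 one of 74.0%. The latest Hox genes were more sparse, with medians of 42.0% for hoxa13b and 50.4% for hoxd12a. In periderm-like barcodes, which should lack these genes and were limited to at most 1 of the 7, the median share was 2.74% for tbxta and 0.42% for hoxd12a, where the median library had a median of 15149 UMIs per periderm-like barcode and 19160 per member. Members could hold 1 of the 3 notochord genes. The median share with noto was 29.6% in members (19.6% to 37.3%) and 10.1% in other barcodes. The shares of twist2 (0.92% against 4.13%) and ntd5 (4.34% against 14.3%) were lower in members. These values chose the members and are given as a description. Of the members, 459 held all 7 genes, 2570 held 5 or more and 1344 held exactly 4.

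Levels of genes outside the rule were set beside those in all other barcodes in the 4 control libraries (tyr crispant and wild type, n = 4), without a test, and many genes of the posterior growth zone were high in members. Of 12564 genes with at least 1 CPM in either class, 356 (2.83%) were at least 2-fold higher in members and 1694 (13.5%) at least 2-fold lower. Paralogous T-box factors that drive mesoderm were high: tbx16 stood at 491 ± 124 CPM (SD), 7.35-fold the level in other barcodes, and tbx16l at 144 ± 27.7 CPM, 6.84-fold. The clock genes hes6 (2040 ± 633 CPM, 7.26-fold) and her7 (290 ± 115 CPM, 7.79-fold) were both high. All 16 posterior Hox genes of groups 9 to 13 with at least 1 CPM, a list without the 2 rule genes, were more than 2-fold higher in members. Among them hoxa10b was at 114 ± 12.7 CPM (9.38-fold) and hoxa11b at 62.5 ± 15.3 CPM (8.59-fold). The caudal-type factor cdx1a, a regulator of Hox genes, was at 436 ± 165 CPM (6.72-fold).

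Signalling genes lay on both sides, where over all 12564 genes 2.83% were at least 2-fold higher in members and 13.5% at least 2-fold lower. The Wnt ligand wnt5b was at 82.1 ± 16.6 CPM (7.71-fold), 6 of 10 Wnt target genes were at least 2-fold higher, with none as much lower, and of 7 Wnt ligand and receptor genes 3 were higher and 2 lower. The FGF ligand fgf8a was at 416 ± 117 CPM (5.36-fold), 5 of 11 FGF targets were at least 2-fold higher, with none as much lower, and of 10 FGF ligand and receptor genes 3 were higher and 4 lower. For retinoic acid the degrading enzyme cyp26a1 was at 309 ± 69.0 CPM (7.05-fold) while the synthesizing enzyme aldh1a2 was at 2.35 ± 2.75 CPM (0.17-fold), and of 7 genes of that list 3 were at least 2-fold higher and 2 lower. The homeobox repressors vent (8.89-fold), vox (3.91-fold) and ved (2.60-fold), all targets of BMP and Wnt8 signals, were higher, but of 10 BMP targets 4 were at least 2-fold higher and 4 lower, and of 11 BMP ligands and regulators 3 were higher and 3 lower. Of 13 genes of the Notch and clock list 7 were at least 2-fold higher and none as much lower.

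Of 124 secretory machinery genes with at least 1 CPM, none was 2-fold higher in members, 19 were at least 2-fold lower and 105 lay between, close to the shares over all genes. The regulators of the unfolded protein response were 2-fold or more lower for 4 of 12 and higher for none. All 8 periderm markers and all 7 forebrain and eye markers were at least 2-fold lower, and all 17 cell cycle genes lay within 2-fold. Among the 20 genes with the largest ratios were also the membrane protein gene itm2cb (425 ± 109 CPM, 9.56-fold), rbm38 (292 ± 88.3 CPM, 8.12-fold), which encodes an RNA-binding protein, and the metalloprotease gene adam8a (137 ± 38.9 CPM, 7.98-fold).

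Members were also set beside presomitic-like barcodes, which held UMIs in at least 5 of 12 presomitic markers and in fewer than 4 of the 7 rule genes. There were 4433 of them in the 16 libraries, and levels were compared in the 4 control libraries, with 1018 presomitic-like barcodes and 968 members. The presomitic markers tbx6, msgn1, tbx16 and tbx16l were among the 12, so their lower levels in members follow in part from that choice. The limit on rule genes may likewise lower genes that go with them in presomitic-like barcodes, so higher levels in members may follow in part from it. Members held more fgf8a (10.8-fold), adam8a (10.0-fold), sox2 (6.23-fold) and cyp26a1 (5.09-fold), and less msgn1, a paraxial mesoderm factor (1068 CPM, 0.36-fold), and her1 (30.6 CPM, 0.26-fold). The T-box factor tbx6, which marks anterior presomitic mesoderm, was at 4.94 CPM in members and 327 CPM in presomitic-like barcodes. The levels of tbx16 (0.86-fold) and her7 (0.80-fold) were close in both. Other genes high against all other barcodes differed far less from presomitic-like ones. These were rbm38 (1.09-fold), itm2cb (1.35-fold), hes6 (1.42-fold), cdx1a (1.58-fold), wnt5b (1.84-fold), hoxa11b (1.86-fold) and hoxa10b (2.25-fold). High cyp26a1 and adam8a were not particular to members. Barcodes left out for notochord genes held them at 278 and 90.3 CPM in the control libraries, against 309 and 137 CPM in members. For tbx16 these values were 155 and 491 CPM.

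The neural and mesodermal factors sox2 and tbx16 were then read in single members. Of 6 neural progenitor genes with at least 1 CPM, 1 was at least 2-fold higher in members than in all other barcodes and 3 lower, and of 12 presomitic genes 4 were higher and 4 lower. With each barcode thinned to 5000 UMIs, 10.9% of members in the median library (8.46% to 14.6%) held UMIs of both sox2, a neural progenitor factor, and tbx16. Another 25.7% (18.3% to 33.8%) held sox2 alone, 45.9% (42.3% to 52.9%) held tbx16 alone and 15.7% (12.0% to 24.1%) held neither. Before thinning 62.3% of the same members held a sox2 UMI and 69.4% a tbx16 UMI in the median library. In periderm-like barcodes at the same depth the median share was 9.61% for sox2 (5.14% to 19.0%) and 2.27% for tbx16 (0% to 3.71%). The msgn1 share was 42.4% in members (36.2% to 53.1%) and 3.81% in periderm-like barcodes. The total shares of members with sox2 (30.0% to 42.4%) and tbx16 (50.8% to 65.6%), and that with msgn1, lay above the highest periderm-like value of each gene. For the share with both sox2 and tbx16 no background value was taken. That share is close in size to the periderm-like share of sox2 alone, and is not read as a count of cells in both states.

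The rule is a threshold, and the levels of some genes followed the number of rule genes held. The 1656 barcodes with 3 rule genes, just outside it, had cyp26a1 at 105 CPM in the control libraries, against 194 CPM in members with 4 and 362 CPM in members with 5 or more. The same order held for adam8a, with 50.4, 90.1 and 160 CPM, and for hes6, with 1138, 1541 and 2286 CPM. The order was opposite for sox3, a neural factor, with 170, 113 and 72.5 CPM, and for msgn1 the values were 1464, 1446 and 859 CPM. Neither order held for tbx16, with 387, 515 and 473 CPM, or for tbx16l, with 139, 159 and 132 CPM.

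The latest Hox genes differed between libraries. As a rule gene hoxd12a helped to choose the members, so its levels are a description. In set A, it lay between 72.7 and 90.2 CPM. In set B the tyr crispant stood at 69.6 CPM, while the wild-type libraries were at 15.5 and 32.7 CPM, the creb3l1 mutant at 19.4, the creb3l1 crispant at 15.7, the xbp1+creb3l2+creb3l1 embryos at 10.1 and the quadruple embryos at 11.5 and 30.1 CPM. The levels of hoxd12a in the 7 other libraries of set B were thus below every library of set A, whatever their genotype. The gene hoxd11a, outside the rule, ran from 7.60 CPM in the first quadruple library to 69.7 CPM in the first tyr library. Levels of cdx1a ran from 154 CPM in the first creb3l1 mutant library to 681 CPM in the first wild-type library. The summed posterior Hox list ranged from 1094 CPM in the second wild-type library to 1946 CPM in the first tyr library. Because the split of hoxd12a crosses the tyr controls, any comparison of tyr with groups of set B holds it as well. Its part in the results below was not tested beyond a fit with the summed Hox level as a covariate.

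**Figure D1:**
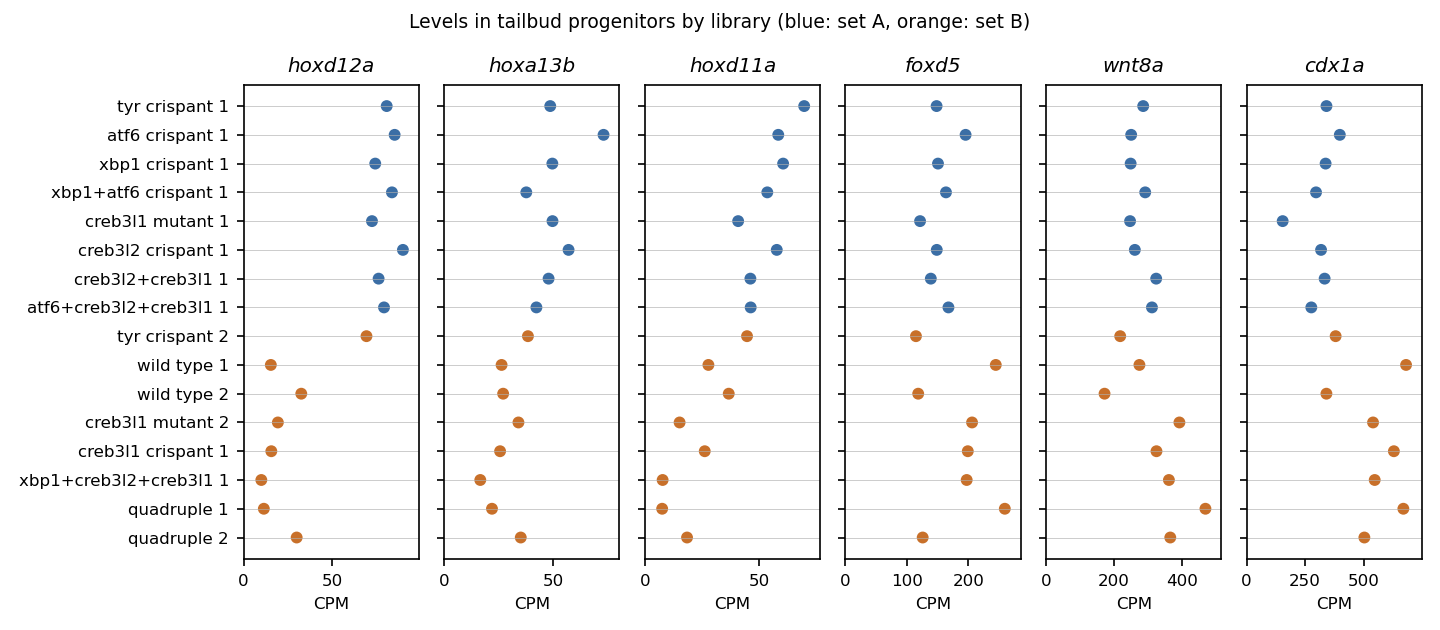
Levels in CPM of summed member counts (x axes) of 3 posterior Hox genes, foxd5, wnt8a and cdx1a in each of the 16 libraries (y axis), coloured by library set. The hoxd12a points of set A lie between 72.7 and 90.2 CPM, with the tyr crispant of set B at 69.6 and the other 7 libraries of set B at 32.7 or below.

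The share of tailbud progenitors was then compared between libraries. It ranged from 4.27% in the xbp1 crispant to 8.86% in the second quadruple library. Since more marker genes are seen in deeper barcodes, the share was also taken after thinning to 5000 UMIs, where it ran from 2.27% to 5.37%, in the same 2 libraries. The 7791 barcodes with fewer UMIs were left out of the thinned share. Both shares are counted from the rule genes. A change in the levels of these genes therefore cannot be told apart from a change in the number of tailbud cells. Detection of single rule genes varied at this depth, with hoxd12a in 3.79% to 32.7% of members per library.

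The thinned share showed no called difference for any loss after adjustment. It was 3.78% ± 0.94 (SD, n = 5) with atf6 lost and 2.95% ± 0.52 (n = 11) with atf6 intact, a difference of 0.83 percentage points (two-sided exact permutation test, p = 0.0284, 0.142 after Benjamini-Hochberg adjustment over 5 terms, smallest p possible 0.000229). Without the second quadruple library the difference was 0.44 points (exact permutation p = 0.151), within set A it was 0.43 points (exact permutation p = 0.268) and within set B 1.39 points (exact permutation p = 0.0714). The differences for xbp1 (0.13 points, p = 0.773), creb3l1 (0.35 points, p = 0.406), creb3l2 (0.43 points, p = 0.306) and injection (0.23 points, p = 0.624) were smaller in the same exact permutation test. Without the second quadruple library those for xbp1, creb3l1, creb3l2 and injection were -0.38, 0.07, 0.05 and 0.04 points. Within set A they were -0.67, 0.11, 0.09 and 0.30 points, and within set B 0.77, 0.62, 0.77 and 0.24 points, where loss of xbp1 and of creb3l2 occurred in the same 3 libraries.

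**Figure D2:**
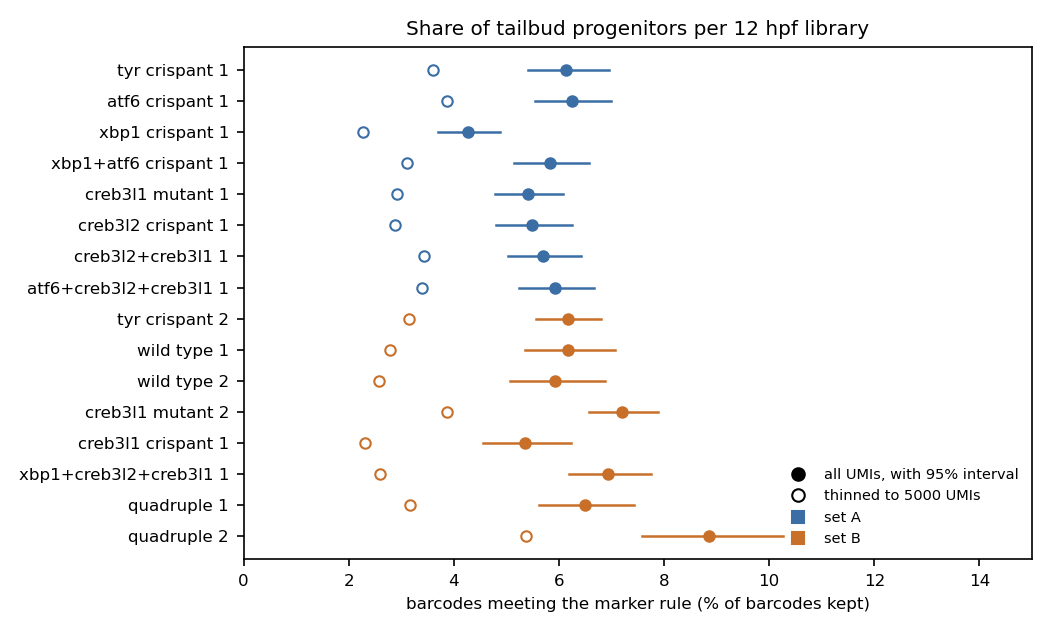
Share of kept barcodes that met the rule (x axis, percent) in each of the 16 libraries (y axis), with all UMIs (filled, with 95% Clopper-Pearson intervals that cover counting error only) and after thinning to 5000 UMIs (open). The xbp1 crispant is lowest (4.27%, thinned 2.27%) and the second quadruple library highest (8.86%, thinned 5.37%).

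Member UMIs were next summed per library and fitted in edgeR with additive terms for the 4 losses, injection and set. In such sums fewer cells of one kind and less RNA per cell cannot be told apart. The targeted transcripts were read first. Levels of atf6 were 4.28 to 11.2 CPM in the 5 libraries without it and 24.9 to 51.3 CPM in the other 11, and did not overlap. Levels of creb3l2, 2.05 to 4.13 CPM where lost (n = 6) and 4.95 to 14.2 CPM where intact (n = 10), did not overlap either. Levels of xbp1 were 20.7 to 65.7 CPM where lost and 52.8 to 184 CPM where intact, with overlap. The creb3l1 transcript was scarce in tailbud progenitors, at 2.06 to 7.95 CPM where lost and 1.85 to 5.32 CPM where intact, so it gave no check of the creb3l1 labels.

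Genes of the DNA damage response rose with injection. Cells with broken DNA switch on genes of cell cycle arrest, repair and apoptosis. With injection as a term, 46 of 11145 genes (0.413%) rose and none fell (edgeR's quasi-likelihood test, Benjamini-Hochberg below 0.05), and 700 (6.28%) had an unadjusted p under 0.05. Of the 13 tested genes in a damage response list 11 rose, with a median log2 fold change of 2.56 over the 13 against -0.01 over all tested genes. The list was chosen with earlier results of these data known, and some genes were left out of it. Its counts and medians here and below are thus a description. The summed level of that list was 707 to 935 CPM in uninjected and 2749 to 7272 CPM in injected libraries.

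The gene phlda3, an inhibitor of Akt signalling, was at 3.92, 8.21, 11.5 and 4.84 CPM in the uninjected libraries, the first 2 values being wild type and the others creb3l1 mutant. In the 12 injected libraries it had its lowest, median and highest values at 71.9, 151 and 300 CPM. The groups were far apart, and the log2 fold change was 3.88 (SE 0.32, edgeR adjusted p = 5.6e-05). The lowest injected libraries were the atf6, tyr and xbp1 crispants at 71.9 to 90.2 CPM, and the highest was creb3l2+creb3l1.

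Effectors of arrest rose with it. The cyclin G gene ccng1 was at 279 to 505 CPM without and 1595 to 4345 CPM with injection (log2 fold change 2.40), and cdkn1a, the inhibitor of cyclin-dependent kinases p21, at 2.88 to 5.50 and 16.8 to 81.1 CPM (2.56). The stress sensors sesn3 (3.78) and gadd45aa (3.43) also rose. Effectors of apoptosis that rose were bbc3, which encodes Puma (3.91), casp8 (3.17) and baxa, which encodes Bax (0.98). The ubiquitin ligase gene mdm2, a feedback regulator of the response, was at 15.9 to 17.9 CPM without and 64.4 to 265 CPM with injection (2.35). The list members rps27l, a ribosomal protein paralogue (2.46), and isg15, a ubiquitin-like modifier (4.91), rose as well. Outside the list, lnx1 (4.16), a ubiquitin ligase gene, the Rb family gene rbl2 (4.15), the Wnt agonist gene rspo1 (4.02) and foxo3b (3.13), a forkhead factor, rose.

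Among the 46 genes 42 had every injected library above every uninjected one, as did 79 of all 11145 tested genes. Leaving out the creb3l1 crispant reduced the 46 to 23, and baxa and gadd45aa were then not called. Without the first creb3l1 mutant library baxa was not called. Cell cycle genes did not pass the test, with 6 of 17 higher and a median of -0.03. Of other cell type lists, the periderm list was at 60.6 to 762 CPM in uninjected and 69.5 to 616 CPM in injected libraries, and the hatching gland list at 460 to 1433 and 459 to 942 CPM.

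**Figure D3:**
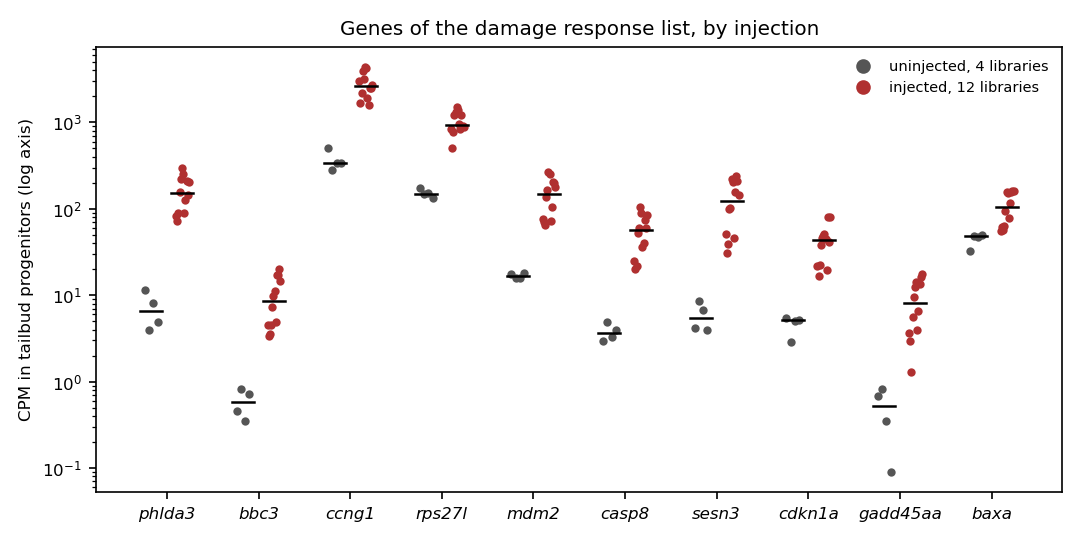
Levels in CPM (log y axis) of 10 genes of the damage response list (x axis) in summed members of the 4 uninjected (grey) and 12 injected (red) libraries, 1 point each, with the median as a bar. For each of these genes all injected points lie above all uninjected ones, for mdm2 at 64.4 to 265 against 15.9 to 17.9 CPM.

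The response was set against that of all other cells in a fit with library as a block and a term for the difference. Of 16264 genes 1 (0.00615%) responded differently to injection (edgeR), and it was phlda3, while 657 (4.04%) had an unadjusted p under 0.05. Its increase was larger by 1.04 on the log2 scale (SE 0.12, adjusted p = 0.00429), with other cells at 8.85 to 21.9 CPM without and 86.3 to 274 CPM with injection. In both classes injected and uninjected libraries did not overlap. It was no longer called when barcodes of hatching gland and axial type were left out of the other cells or when the creb3l1 crispant was left out. Its difference stayed at 0.875 to 1.14 over all alternative fits, these 2 included. Without the second tyr library 7 genes were called, and without the first tyr, either creb3l1 mutant or the second wild-type library 2 each.

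Loss of xbp1, a main activator of secretory genes, gave no call in tailbud progenitors (0 of 11145, 0%, edgeR), while 626 genes (5.62%) had an unadjusted p under 0.05 and DESeq2 called 0. The transcript of xbp1 itself had a log2 fold change of -1.19 (SE 0.28, adjusted p = 0.796). The genes with the smallest p were srp14, a signal recognition particle subunit (0.84), ints3 of the Integrator complex (-0.65), rad50, a DNA repair gene (-0.56) and the small heat shock gene hspb8 (-1.57), each with an adjusted p of 0.796. The chaperone BiP gene hspa5 was at 23.1 to 39.5 CPM in the 5 libraries without xbp1, with a median of 31.8, and at 28.0, 51.6 and 66.0 CPM for the lowest, median and highest of the 11 with it. The groups overlapped and the log2 fold change was -0.73 (SE 0.20, adjusted p = 0.796).

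Of 119 tested secretory genes 43 had a positive and 76 a negative value after xbp1 loss, with a median of -0.06 against 0.00 over all tested genes. The folding genes, 5 positive and 22 negative, had a median of -0.16, and the translocation genes, 11 and 11, one of 0.00. Together 127 secretory genes took 0.922% ± 0.0587 (SD, n = 5) of member UMIs without xbp1 and 0.990% ± 0.0802 (n = 11) with it.

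Set against all other cells, 14 of 16264 genes (0.0861%) responded differently to xbp1 loss in tailbud progenitors (edgeR), 12 higher (0.0738%) and 2 lower (0.0123%), and 792 (4.87%) had an unadjusted p under 0.05. Of the 125 tested secretory genes 11 were among the 12, and the list's median difference was 0.14 against -0.03 over all genes. In other cells hspa5 was at 30.5 to 61.9 CPM without xbp1 and 78.5 to 161 CPM with it, and these ranges did not overlap. The difference in log2 change was 0.76 for hspa5 (SE 0.079, adjusted p = 0.000425) and 0.42 for ssr2 (SE 0.042, adjusted p = 0.000425), a subunit of the translocon-associated TRAP complex. In members ssr2 was at 203 to 276 CPM without and 193 to 334 CPM with xbp1, and in other cells at 247 to 306 and 337 to 568 CPM.

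Further genes of protein entry into the endoplasmic reticulum were in the same group. The TRAP subunits ssr3 (0.36) and ssr4 (0.44), the Sec61 channel subunits sec61b (0.45), sec61a1 (0.35), sec61a1l (0.61) and sec61g (0.32), and serp1 (0.32), a channel-associated protein, had positive differences. So had pdia3, a disulfide isomerase (0.48), ddost of the oligosaccharyltransferase (0.35) and ufm1, a ubiquitin-like modifier outside the list (0.37). The 2 genes with negative differences were heat shock genes, hsp70.3 (-2.26, adjusted p = 0.000647) and hsp70l (-4.87, adjusted p = 0.042). Members held hsp70.3 at 1.23 to 5.03 CPM without and 0.699 to 11.9 CPM with xbp1, other cells at 1.78 to 26.6 and 0.963 to 21.2 CPM, and hsp70l was at 0 in some libraries. Heat shock and Sec61 paralogues are alike in sequence, and reads could be split between them in counting.

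The secretory list took 1.07% ± 0.0909 of UMIs in other cells without xbp1 and 1.35% ± 0.127 with it. When hatching gland and axial barcodes were left out of the other cells these shares were 0.994% and 1.13%, and 0 of the 14 differences were called. The difference of hsp70.3 was then 0.15. The other differences kept their sign in every alternative fit. Those of the secretory genes were at least 0.0922, the lowest value of sec61g, and that of hspa5 was at least 0.434. The count was 6 without the atf6 crispant, the xbp1 crispant or the xbp1+creb3l2+creb3l1 library, and 8 without the creb3l1 crispant.

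**Figure D4:**
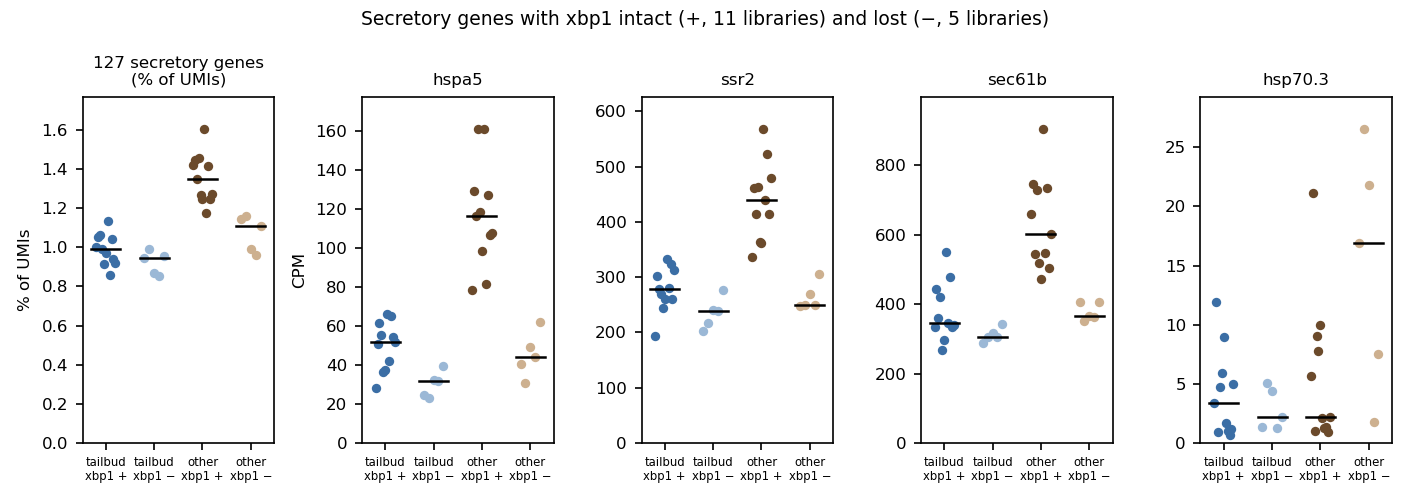
Share of UMIs in 127 secretory genes (percent) and levels of 4 genes (CPM) per library in tailbud progenitors and in all other cells, with xbp1 intact (+) or lost (−), with medians as bars. In other cells hspa5 is at 30.5 to 61.9 CPM without xbp1 and 78.5 to 161 CPM with it, while in tailbud progenitors the groups overlap at 23.1 to 39.5 and 28.0 to 66.0 CPM.

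Loss of atf6, which encodes a stress sensor cleaved in the Golgi, changed 1 of 11145 genes (0.00897%, edgeR), and 398 (3.57%) had an unadjusted p under 0.05. The gene called was atf6 itself, with a log2 fold change of -2.29 (SE 0.21, adjusted p = 0.000178). A further gene, srp14, had -0.84 (adjusted p = 1), opposite in sign to its value for xbp1 loss. In the secretory list 59 values were positive and 60 negative, with a median of 0.00. No gene differed between tailbud progenitors and other cells (0 of 16264, 0%, edgeR), while 584 (3.59%) had an unadjusted p under 0.05.

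Loss of creb3l2, a membrane-bound factor of the Creb3 family, gave no call (0 of 11145, 0%, edgeR), with 590 genes (5.29%) at an unadjusted p under 0.05 and 8 called by DESeq2. The value for creb3l2 was -1.97 (SE 0.30, adjusted p = 0.124). The next smallest p belonged to rasl11b, a small GTPase gene (0.81), mmrn2b (1.53), bdnf, a neurotrophin gene (1.90), and baxa (0.79), with adjusted p of 0.164 to 0.306. All 13 tested genes of the damage response list had positive values, with a median of 0.90 against 0.00 over all tested genes, and none was called. Of those, mdm2 had 1.03 (adjusted p = 0.4) and phlda3 0.90 (adjusted p = 0.794). Libraries without creb3l2 were all injected, and the number of genes targeted by guides differed between injected groups, so loss of creb3l2 and the number of targets cannot be fully told apart. In the secretory list 40 values were positive and 79 negative, with a median of -0.06, and syvn1, a ubiquitin ligase of protein degradation, had -0.56 (adjusted p = 0.798). No gene differed from other cells (0 of 16264, 0%, edgeR), and 665 (4.09%) had an unadjusted p under 0.05.

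With loss of creb3l1 the genes ss18l2, zgc:56585 and gstk1 were lower in both the mutant line and the crispant. The clock gene her12 was lower in the line, with the crispant within the intact range. For adam8a, also lower in the line, the crispant lay between the wild-type libraries and below every injected intact library. In tailbud progenitors 39 of 11145 genes passed (0.35%, edgeR), 9 higher (0.0808%) and 30 lower (0.269%), and 1169 (10.5%) had an unadjusted p under 0.05. The term pools 7 libraries of the mutant line with 1 crispant library, and these often differed. Of the 30 lower genes 18 had all 7 line libraries below all 8 intact ones. The crispant lay below all intact libraries for 11 of the 30 and within their range for 19. The same libraries gave the calls, and neither count was taken over all tested genes, so both are a description. In the line, differences of genetic background from the other embryos cannot be told apart from loss of the factor. For genes low in the crispant too, the crispant is 1 library without a replicate that also entered the fit. It held few UMIs of some of them, such as 15 of gstk1 and fewer still of zgc:56585, at 1.05 CPM.

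Low in both the line and the crispant was ss18l2, a gene related to the SS18 chromatin factor. It was at 47.4, 57.8 and 66.2 CPM in the lowest, median and highest intact library, at 24.2 to 29.7 CPM in the line and at 36.7 CPM in the crispant, and these ranges did not overlap. Its log2 fold change was -0.85 (SE 0.094, edgeR adjusted p = 0.00115). The same held for zgc:56585, at 5.31 to 17.3 CPM where intact, 0.197 to 0.993 in the line and 1.05 in the crispant (-3.64, SE 0.31, adjusted p = 6.64e-05). The glutathione transferase gene gstk1 was at 6.80 to 46.8 CPM where intact, 0.985 to 4.37 in the line and 3.93 in the crispant (-2.62, SE 0.34, adjusted p = 0.00399).

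A gene high in tailbud progenitors, adam8a, fell by 1.12 on the log2 scale (SE 0.14, adjusted p = 0.00399). It was at 89.7, 171 and 184 CPM in the lowest, median and highest intact library, at 42.7, 49.9 and 63.6 CPM in the line, and at 106 CPM in the crispant. All 7 line libraries were below the intact ones. The wild-type libraries, at 121 and 89.7 CPM, were the lowest of the intact ones. The crispant, an injected library, lay between these and below every injected intact library.

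Of 13 Notch and clock genes 1 fell and none rose. This was her12, an oscillating Hairy/Enhancer-of-split gene, which was at 181 to 480 CPM where intact, 70.8 to 107 in the line and 253 in the crispant (-1.14, SE 0.23, adjusted p = 0.0482). It was called in 4 of 16 fits that left out a library. Its partners did not pass: her7 was at 208 to 458 CPM where intact and 221 to 361 in the line (-0.17, adjusted p = 0.743), and hes6 had -0.01 (adjusted p = 0.989).

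Other genes that fell were mboat7, a phospholipid acyltransferase (-2.05), impa1, an inositol monophosphatase (-1.78), and the complement gene c6 (-4.03). Called genes such as mybpc2b (-5.62), tspan4b (-5.34) and fthl30 (-4.64) were at or near 0 also in the first wild-type library. Higher were ahcy, an enzyme of the methyl cycle, at 68.2 to 89.2 CPM in the line and 37.0 to 54.9 where intact (0.64, adjusted p = 0.0342), and ldhba, a lactate dehydrogenase, at 143 to 168 and 71.1 to 116 CPM (0.57, adjusted p = 0.0357). The crispant, at 57.4 CPM for ahcy and 89.7 for ldhba, was above the intact range for the first only. Over the 16 fits that left out a library, ahcy was called in 7 and ldhba in 5. Of the genes that fell, mboat7 was called in 14, impa1 in 12, c6 in 9, mybpc2b in 7, and tspan4b and fthl30 in 6 each.

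Of the tailbud pathways, all 7 genes of the retinoic acid list had positive values with a median of 0.26 and none was called. The share of positive values over all tested genes was not taken, so this is a description. The posterior Hox gene hoxd11a had a negative value (-0.65, edgeR adjusted p = 0.295). In the retinoic acid list cyp26a1 was at 248 to 402 CPM where intact and 360 to 562 in the line (0.38, adjusted p = 0.317). In the FGF target list spry1, a feedback inhibitor, had the smallest p (-0.91, adjusted p = 0.0683). The secretory list, 52 positive and 67 negative with a median of -0.03, held no call. No gene differed from other cells (0 of 16264, 0%, edgeR), with 731 (4.49%) at an unadjusted p under 0.05.

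The number of calls for creb3l1 depended on single libraries. It was 2 without the creb3l2 crispant, 3 without the first creb3l1 mutant, 6 without the second wild-type, 7 without the creb3l2+creb3l1, 8 without the first tyr and 8 without the xbp1+atf6 library. Values of 10, 11, 14 and 15 were found without the xbp1+creb3l2+creb3l1, xbp1, second creb3l1 mutant and atf6+creb3l2+creb3l1 libraries. Leaving out the creb3l1 crispant gave 112, the second tyr library 109 and the first wild-type library 63. The genes zgc:56585 and ss18l2 were called in each of the 16 fits. The first creb3l1 mutant library is the one with 412 CPM of germ cell markers. It also had the largest share of members scored as doublets, 30 of 260 (11.5%). An automatic doublet cut-off marked 7.34% of its barcodes, and at most 0.224% in any other library. The part of either in the calls was not tested, apart from leaving this library out and a fit without scored doublets.

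**Figure D5:**
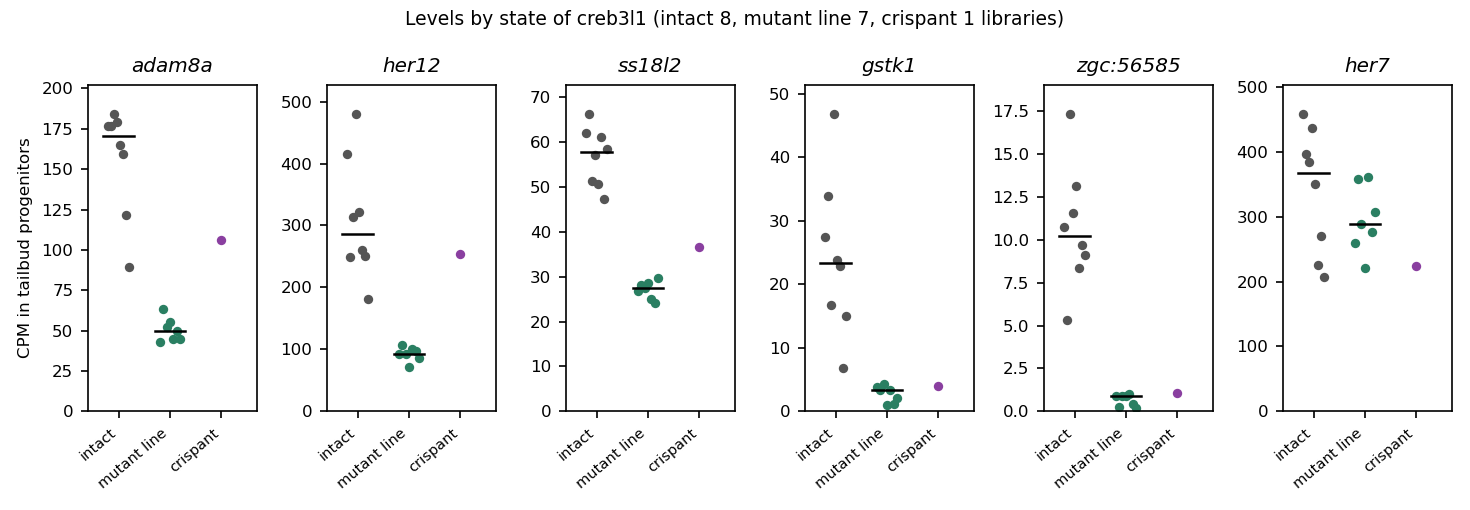
Levels in CPM (y axes) of 6 genes in summed members, by the state of creb3l1, with intact libraries, the mutant line and the crispant as separate columns and medians as bars. For adam8a the line lies at 42.7 to 63.6 CPM, the crispant at 106 and the intact libraries at 89.7 to 184, while her7, not called, overlaps.

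The quadruple embryos were compared with the tyr crispants in a fit of the 8 libraries of replicated groups. Here 9 of 10909 genes (0.0825%) passed, 2 higher (0.0183%) and 7 lower (0.0642%) (edgeR, adjusted p between 0.0195 and 0.0435), and 495 (4.54%) had an unadjusted p under 0.05. The gene phlda1, a pleckstrin-homology domain gene, was at 18.1 and 16.9 CPM in tyr and 1.44 and 1.38 CPM in quadruple embryos (-3.60, adjusted p = 0.0268). It was also at 1.97 to 5.02 CPM in the other libraries of the creb3l1 line. Low levels were not confined to the line. The atf6 crispant, with creb3l1 intact, held 17 phlda1 UMIs among 4712521 member UMIs, and the first tyr library 64 among 3530096. The kinase gene camk2g2 was at 9.06 and 19.5 CPM in tyr and 1.23 and 0.983 CPM in quadruple embryos, with 0.284 to 1.54 CPM in the other line libraries. Likewise si:ch211-114n24.6, at 126 and 41.7 CPM in tyr, was at 465 and 569 CPM in quadruple and at 299 to 614 CPM in the other line libraries. A neuronal gene, rimbp2, had 0 UMIs in both tyr libraries and 163 and 268 UMIs in the quadruple ones. In the other libraries of the line it had 16, 18 and 18 UMIs in set A and 229 and 266 in set B. The creb3l1 crispant, outside the line, held 57 camk2g2 and 41 phlda1 UMIs among 3814513 member UMIs. In the first tyr library these were 32 and 64.

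The targeted genes atf6 (-1.91, adjusted p = 0.193), creb3l2 (-2.22, adjusted p = 0.443) and xbp1 (-1.77, adjusted p = 0.668) did not pass in this smaller fit in edgeR. Of 119 secretory genes 26 had positive and 93 negative values, with a median of -0.23 against 0.00 over all tested genes and no call. Of 16 posterior Hox genes 3 were positive and 13 negative (median -0.39), and of 17 cell cycle genes 15 were positive and 2 negative (median 0.22), again with no call. The damage response list had 12 positive and 1 negative value with a median of 0.97. No gene was called without the second tyr, the first quadruple or the second quadruple library, and 18 or 19 were called without the first or the second wild-type library. This comparison shares libraries with each of the 5 terms above and is no separate support for them.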

How the data were processed

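Droplet single-cell libraries (10x Genomics, 3′ chemistry) of pooled whole embryos were deposited as raw UMI counts per gene and barcode, 1 matrix a library, written by Cell Ranger 3.1.0 (8 libraries) or 6.1.2 (8 libraries), per the file headers. The aligner's genome build and the rule for calling cells are not given in the sources used here. From the deposited counts, features sharing a symbol were summed and the marker rule was applied, and libraries at other stages are not analysed here.

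Member UMIs were summed per library and tested with edgeR 4.0.16 (R 4.3.3): TMM scaling, filterByExpr, glmQLFit and glmQLFTest, two-sided, Benjamini-Hochberg over all genes tested, called below 0.05. All 16 libraries entered, with a term for each of the 4 losses, for injection and for set, 9 residual degrees of freedom and a common biological coefficient of variation of 0.205. The model assumes additive effects on the log scale. The difference from other cells was tested on 2 sums per library, with library as a block and class-by-term coefficients. The groups with 2 libraries were also fitted alone, with set, on 3 residual degrees of freedom (coefficient of variation 0.273). CPM are member UMIs scaled to the same summed total in each library. Shares were compared by exact permutation over libraries after thinning. Fits were also run on simulated counts with the same spread for every gene and no set effect, as a check of the code only. Periderm-like barcodes held at least 5 of 8 periderm markers and at most 1 rule gene. Hatching gland barcodes were set by the summed share of their marker UMIs (at least 0.1%) and axial barcodes by 2 or more of the 3 notochord genes.

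The members and gene lists were chosen with earlier results of these data known. Some genes are not reported here and were left out of the damage response list. Named genes were drawn from the 10 called genes with the smallest p and the 10 with the largest change, called list members and up to 4 of each list with the smallest p, the 5 smallest p where none was called, the targeted genes and the 20 genes with the largest ratio of members to other barcodes. Not all of these were described above. Left out were, for example, ct868708.1 (-6.61), with the smallest p for quadruple against tyr, and si:ch73-256j6.4 (-7.00), with the largest called change for creb3l1 loss. Other genes named (such as ahcy, ldhba, her7 and hes6) were chosen after their values were seen. Alternatives were DESeq2 1.42.0, no low-count filter, no injection or set term, stricter or thinned membership, removal of doublets scored with scrublet in scanpy 1.11.5 at 0.8% per 1000 barcodes (250 members), and leaving out each library. Depth limits low genes, and intervals cover counting error only. Libraries that share a replicate number were not paired, since the correlations of their deviations ran from -0.404 to 0.363 over 6 pairs of groups.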

Additional observations from a re-analysis of the deposited data

Results flagged for a closer look

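The response to xbp1 loss differed between tailbud progenitors and all other cells for 14 genes in the test of the difference itself, 12 of them with a smaller fall or a rise in tailbud progenitors, led by ssr2 and hspa5. This number was 0 once hatching gland and axial barcodes were left out of the other cells, though only the difference of hsp70.3 changed sign. The response to injection differed for 1 gene, phlda3, by 1.04 on the log2 scale, and it too was not called in that setting. Its difference was 0.875 to 1.14 over all alternative fits.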

How the results depend on the processing

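Calls without the low-count filter were 105 (xbp1), 103 (atf6), 365 (creb3l1), 145 (creb3l2) and 224 (injection) in tailbud progenitors, 26 (xbp1), 8 (creb3l1) and 7 (injection) against other cells, and 211 for quadruple against tyr. DESeq2 called 6 (atf6), 130 (creb3l1), 8 (creb3l2) and 28 (quadruple). Without the injection term creb3l1 had 86 calls, and with members chosen at 5000 UMIs creb3l2 had 1. With 5 or more markers the quadruple count was 3, and with a replicate block in place of set it was 15. Replicate numbers do not pair the libraries. Hatching gland and axial barcodes were also left out of the other cells, an alternative chosen after seeing the data. There 0 genes (xbp1) and 0 genes (injection) were called. The value for hsp70.3 reversed to 0.15, while the other genes called in the main fits kept their sign. The cause was not tested. A fit with the summed posterior Hox level as a covariate, also added later, gave 49 calls for creb3l1. Over the fits that left out 1 library, counts were 0 to 0 (xbp1), 1 to 1 (atf6), 2 to 112 (creb3l1), 0 to 3 (creb3l2) and 23 to 68 (injection). Against other cells they were 6 to 19, 0 to 1, 0 to 2, 0 to 1 and 0 to 7 in the same order, and 0 to 19 for quadruple. Differences in share were -0.38 to 0.39 points (xbp1), 0.44 to 1.00 (atf6), 0.07 to 0.50 (creb3l1), 0.05 to 0.61 (creb3l2) and 0.04 to 0.50 (injection), and no share was called under any setting run. Where a group kept 1 library, it was assumed to vary like the others. With 154 members in the smallest library, scarce transcripts such as creb3l1 cannot be compared.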
